A study of Xenopus laevis with 6 samples.

Results

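The 3 libraries described here were made from Xenopus laevis embryos that carried a control Morpholino (control MO) at stage 23, an early tailbud stage. They were chosen by their titles, which name the control MO and replicates 1 to 3, and they are 3 of the 6 libraries of the series. This part of the study profiled gene expression after knockdown of Neil2, a DNA glycosylase of base excision repair. The other 3 libraries are not used here. The study as a whole also used mouse embryonic stem cells, and asked whether Neil defects reflect DNA damage or impaired DNA demethylation. Embryos came from in vitro fertilization, and each received 40 ng of the control MO in the animal hemisphere at the 1-cell stage. RNA with a poly(A) tail from a pool of 6 whole embryos made up each library. These are injected embryos, so they are a baseline for other injected embryos rather than an uninjected one. The labels do not say whether the pools came from separate clutches, and the spread between them may therefore be partly technical.

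A Morpholino is a synthetic antisense oligonucleotide that pairs with a transcript and blocks its translation or splicing. The control oligonucleotide is shown because every embryo described here contained it. All of its bases are in lower case because no part of it is compared with a target.
control MO: cctcttacctcagttacaatttata

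At the early tailbud stage the frog embryo has closed its neural tube, segments somites from head to tail and elongates from a growth zone at its posterior end. The skin is a mucociliary epithelium in which goblet, multiciliated, ion-transporting and small secretory cells lie side by side, and a cement gland forms at the front of the head. Neural crest cells leave the neural folds, the first neurons have formed, striated muscle has begun to differentiate, and the gut is still a yolk-rich endodermal mass.

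Counted reads numbered 20655392, 15656709 and 11534725 in pools 1, 2 and 3, and values of the 3 pools are given in this order throughout. Levels are CPM, the reads of a feature divided by all counted reads of its library and multiplied by 1000000. A feature is one gene model of the annotation, named by its symbol and by .L or .S for the copy on the long or the short chromosome set of this allotetraploid frog. CPM measures a share of reads, and a longer transcript yields more reads. No transcript lengths were used, so an order by CPM is an order by reads, and levels of different genes are set side by side without a statement on molecules per cell. In RNA of whole embryos, fewer cells of a type and less RNA per cell cannot be told apart. A feature counted as detected when it had at least 3 reads in every pool, which corresponds to 0.145, 0.192 and 0.260 CPM. This limit covers counting error only. Pool 3, the smallest library, stood at least 2-fold apart from both other pools for 1.75% of features with a mean of at least 100 reads, against 0.472% for pool 1 and 0.472% for pool 2, and the spread is given with and without it. That mean is of raw reads, so larger libraries weigh more in it.

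Of 44958 features, 25172 (55.99%) were detected and 10116 had no read in any pool. Detection differed between named and unnamed gene models. It was 81.2% for the 24567 features with a symbol and 25.7% for the 20391 without, which together took 11.4 ± 0.276% of the reads (mean ± s.d., n = 3). Mean levels of 1000 CPM or more were found for 63 features, of 100 to 1000 CPM for 1950, of 10 to 100 CPM for 11348 and of 1 to 10 CPM for 8725. A further 12756 features had reads but a mean below 1 CPM. The read distribution was shallow at the top. The single feature with most reads took 0.815 ± 0.0791% of a library, the first 10 took 5.21 ± 0.0589%, the first 100 took 17.6 ± 0.233% and the first 1000 took 44.8 ± 0.224%. Copies on the L chromosomes took 52.6 ± 0.241% of the reads over 16753 features, and those on the S chromosomes 39.3 ± 0.405% over 12646. More features carry the L suffix, so these shares do not compare the level of single copies.

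Keratins of the larval skin were among the most abundant features, with krt5.7 at the head. The S copy of krt5.7, which encodes a type II keratin, had 8823, 8342 and 7277 CPM, and its L copy had 5508, 5406 and 4836 CPM. Epidermal type I keratins were lower in the order by reads. The copies of xk81a1, a classical marker of non-neural ectoderm, had 3547, 3040.3 and 2787 CPM for S and 2565, 2788 and 2082 CPM for L. A further keratin annotated as krt (krt70 in RefSeq) had 3356, 3719 and 3958 CPM for its S copy, and krt12.S had 2565, 2336 and 2036 CPM. The highest pool exceeded the lowest by 1.14-fold for krt5.7.L, the most even of these keratins, and by 1.34-fold for xk81a1.L, the least even.

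Chaperones and RNA-binding proteins stood between the keratins in this order. The constitutive cytosolic chaperone hspa8 had 5142, 5536 and 5924 CPM for its S copy, the third of all features and above krt5.7.L, and hsp90ab1.S, a constitutive HSP90, had 3948, 3971 and 4289.8 CPM. The partner copy hspa8.L was less even, with 1482, 435 and 1828 CPM, lowest in pool 2. Both copies of cirbp, a cold-inducible RNA-binding protein, were at similar levels, with 4097, 4503 and 4623 CPM for L and 4102, 3970.4 and 4247 CPM for S. Nucleolin, a major nucleolar protein, had 3609, 3596 and 4307 CPM for ncl.L and 2475, 2705 and 3154 CPM for ncl.S. The chromatin protein hmgb2 stood out by its spread, since hmgb2.L had 2692, 2789 and 4259 CPM, with pool 3 above the other pools. Translation was represented by the elongation factors eef1a1o.S (3062, 3762 and 2993 CPM) and eef2.1.L (3008, 2906 and 1949.9 CPM), by the poly(A)-binding protein pabpc1.S (2486, 2454 and 2224 CPM) and by tpt1.L (2292, 2086 and 2321 CPM). The form eef1a1o is known in Xenopus as an oocyte type of elongation factor 1 alpha. The somatic symbol eef1a1 was not matched to a feature.

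Secreted products were also in the set. The lectin gene itln1.L, which encodes intelectin, a secreted lectin of mucus-producing skin cells, had 2269, 1906 and 2172 CPM. The protease inhibitor gene a2m.S, which encodes alpha-2-macroglobulin, had 1729, 2005 and 2531 CPM. The feature fcgbp.L, whose mammalian namesake is a mucus-associated protein, had 2928, 3742 and 2929 CPM. Features without a symbol were prominent here too. Xelaev18029462m was second of all features with 8403, 8051 and 6808 CPM, Xelaev18036111m had 4195, 4719 and 4894 CPM, and Xelaev18002122m had 4500.2, 4332 and 3457 CPM. Their identity was not determined. The feature loc100492852.L, named by a locus number, had 1899.8, 2619.6 and 1755 CPM.

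**Figure D1:**
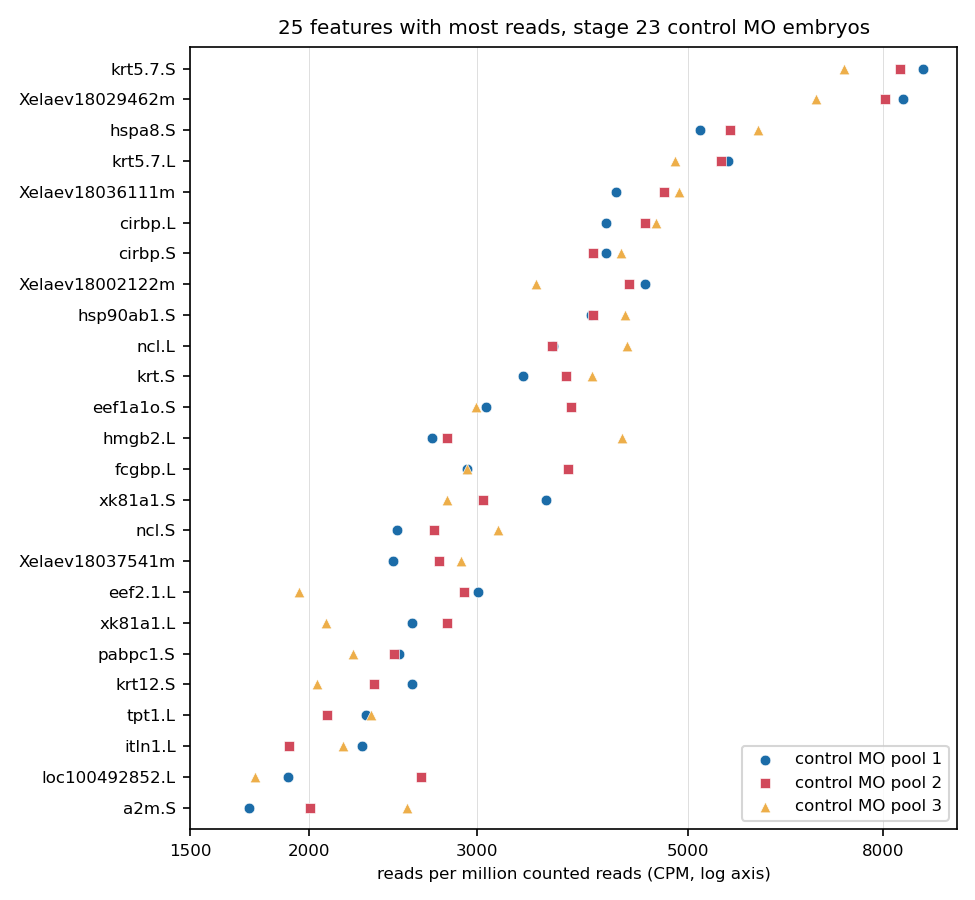
The 25 features with most reads are ordered by mean CPM from top to bottom, with 1 symbol per pool of control MO embryos and CPM on a log axis. The pools lie close together for most features, and hmgb2.L and eef2.1.L show pool 3 at 4259 and 1950 CPM, away from pools 1 and 2.

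To read the tissue make-up, 22 lists of marker genes were summed, and 605 of their 755 features (80.1%) were detected. This share was near the 81.2% of all features with a symbol. A count of detected features on a list is therefore by itself no sign of a tissue. Some genes stand on several lists (otx2 in neural plate and cement gland, for example), and lists differ in length, so a sum describes the list and is no measure of how much of a tissue there was. The median was 0.876 CPM over all 44958 features and 4.08 CPM over the 34842 with a read. Epidermal and muscle lists had the highest sums, and lists of egg genes and of organs formed later the lowest.

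**Figure D2:**
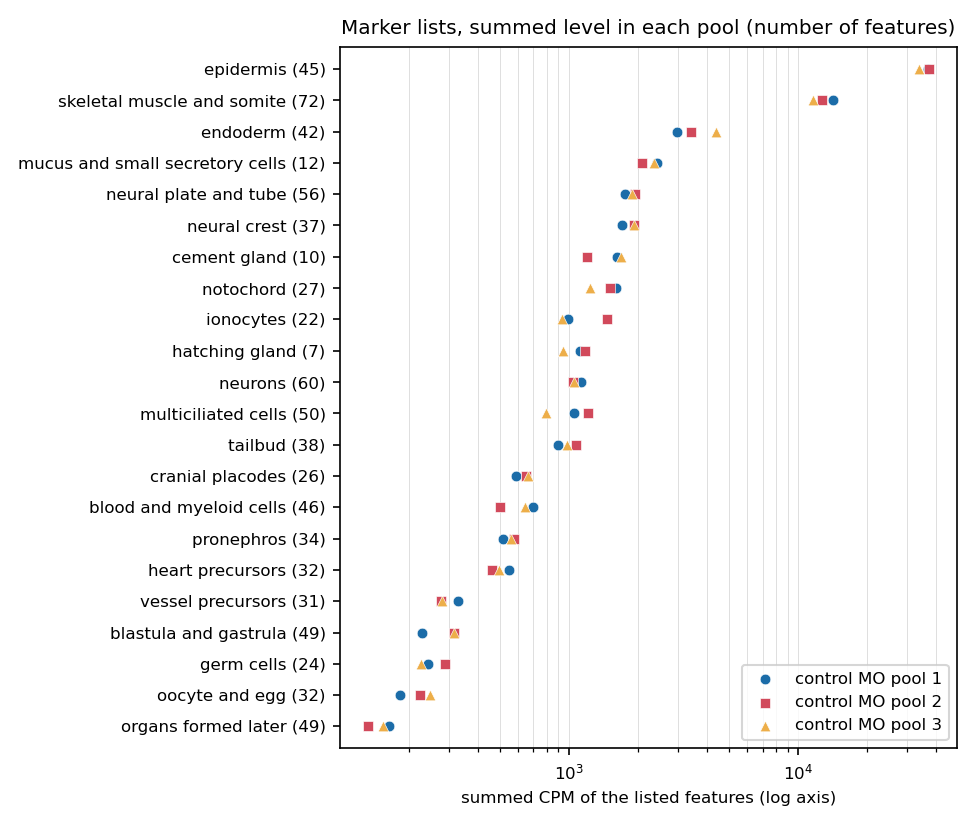
Summed CPM of each marker list (log axis) in the 3 pools of control MO embryos, ordered by the mean, with the number of listed features in parentheses. Epidermis lies between 33750 and 37277 CPM and organs formed later between 133 and 163 CPM, and the pools are most apart for ionocytes, endoderm and multiciliated cells.

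The epidermal list had 41 of 45 features detected and summed to 36957, 37277 and 33750.3 CPM, with a median member at 93.7 CPM. Outside the keratins already named, krt8, a keratin of simple epithelia, was next, with 1878, 1986 and 1909 CPM for S and 1627, 2020.5 and 1609.6 CPM for L. Transcription factors of the surface ectoderm were also detected in every pool. For grhl3, a grainyhead factor of the epidermal barrier, the S copy had 186, 248 and 224 CPM and the L copy 75.0, 105 and 102 CPM. The homeobox factor dlx3, expressed in non-neural ectoderm, had 78.8, 72.6 and 86.0 CPM for S and 56.3, 59.6 and 73.2 CPM for L. Some keratins on the list were at or near the floor, with krt15.L at 0.194, 0.128 and 0.173 CPM and krt5.6.S without a read.

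Specialised cells of the skin were each represented by several detected features. Multiciliated cells carry motile cilia that move mucus over the embryo. Of the 50 features on their list 45 were detected, at 1058, 1209 and 798 CPM in all. Axonemal genes led this list. The dynein heavy chain dnah9.S had 73.3, 102 and 49.9 CPM, and the tektin tekt2.S had 71.4, 69.2 and 55.7 CPM. The copies of foxj1, the master factor of motile ciliogenesis, had 31.2, 30.4 and 28.3 CPM for S and 17.2, 15.9 and 12.7 CPM for L. The gene ccno, needed for centriole amplification, had few reads, at 1.11, 0.83 and 1.21 CPM for L and 0.581, 0.383 and 0.26 CPM for S. The last value rests on 12, 6 and 3 reads.

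Ionocytes pump protons and other ions across the skin. Their list (19 of 22 detected) summed to 990.3, 1459.8 and 936 CPM, highest in pool 2. The carbonic anhydrase ca2, which supplies protons and bicarbonate, had 133, 205 and 123 CPM for L. The anion exchanger slc26a4, pendrin, had 62.6, 165 and 48.5 CPM for its S copy, where pool 2 was above both others, and 88.0, 131 and 67.5 CPM for its L copy. The factor foxi1, which specifies ionocytes, had 28.3, 45.9 and 27.7 CPM for L and 15.4, 19.7 and 18.9 CPM for S. The membrane-bound carbonic anhydrase ca12.L had 36.4, 54.2 and 27.7 CPM. The proton pump subunit atp6v1a, which many other cells also use, ran the other way, with 49.1, 37.9 and 45.8 CPM for L and 49.9, 27.2 and 38.3 CPM for S, so that pool 2 was the lowest.

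The list for mucus and small secretory cells consisted almost wholly of itln1.L, which held 92.6% of its reads. Without itln1.L the list summed to 153, 168 and 185 CPM. The S copy of itln1 had 4.26, 2.68 and 1.91 CPM. The factor foxa1, present in small secretory cells and in endoderm, had 59.5, 65.5 and 78.5 CPM for S and 64.7, 65.2 and 73.4 CPM for L. The gel-forming otogl.L had 1 read in each pool.

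The cement gland, the mucus-secreting organ with which hatched larvae attach, gave 1624, 1201 and 1686 CPM, and all 10 features were detected. Its secreted product ag1 had 511, 361 and 514 CPM for S and 407, 322 and 470.1 CPM for L. The related agr2 had 290.1, 193 and 268 CPM for L and 240.2, 156 and 231 CPM for S. In each of these 4 features pool 2 was the lowest. The homeobox factor pitx1.L, which acts upstream of the gland, had 29.4, 23.1 and 38.8 CPM, again lowest in pool 2. For the hatching gland, whose proteases digest the egg envelope, 9 of 13 listed symbols were not matched, the defining protease genes among them. The list there rests on the cathepsin ctsv, with 736, 783 and 614 CPM for L and 298, 286 and 229 CPM for S, and on pax3, which is also a gene of the neural folds, with 38.2, 47.5 and 47.1 CPM for L.

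Neural tissue was measured through 56 features, all detected, at 1763, 1937 and 1881 CPM with a median member of 24.1 CPM. SoxB1 factors keep neural progenitors undifferentiated. Their member sox3 had 104, 112 and 134 CPM for S and 88.1, 85.4 and 94.7 CPM for L, and sox2.S had 43.7, 40.2 and 36.8 CPM. The related sox11.L had 126, 119 and 159 CPM, and the RNA-binding progenitor marker msi1.S had 121, 123 and 128 CPM. The adhesion molecule ncam1, which marks the neural plate early, had 107, 121 and 85.3 CPM for L and 47.6, 62.6 and 34.9 CPM for S. The neural plate factor zic1 had 27.5, 30.7 and 32.8 CPM for L and 21.9, 25.7 and 25.9 CPM for S. The forebrain and midbrain factor otx2.L varied little, at 62.8, 63.2 and 63.4 CPM.

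The list for differentiated neurons (56 of 60 detected) summed to 1129, 1043 and 1057 CPM, with a median member at 5.57 CPM. The beta-tubulin tubb2b, a marker of early neurons, had 152, 114 and 169.6 CPM for L and 129, 96.6 and 83.9 CPM for S. Both copies are also on the general cytoskeleton list. The RNA-binding protein elavl3 of post-mitotic neurons had 32.3, 37.9 and 36.8 CPM for L and 25.7, 32.4 and 28.3 CPM for S. The LIM factor isl1, found in primary sensory and motor neurons, had 18.9, 19.8 and 22.8 CPM for L and 16.6, 16.1 and 20.3 CPM for S. The intermediate filament prph.L had 114, 130.2 and 94.1 CPM and the zinc finger myt1.L had 64.1, 65.4 and 67.4 CPM. The bHLH factor neurod1, which drives differentiation, had 4.94, 4.28 and 3.73 CPM for L and 5.37, 2.87 and 2.86 CPM for S.

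Neural crest cells form at the border of the neural plate and give rise to facial skeleton, pigment cells and peripheral nerves. The list had 36 of 37 features detected and summed to 1697, 1918 and 1919 CPM. Its level was led by id3, an inhibitor of bHLH factors that other tissues also express, with 287, 260.0 and 285 CPM for S and 232, 245 and 293 CPM for L. Among the specifiers, sox10 had 47.1, 69.8 and 60.3 CPM for S and 47.7, 62.2 and 66.8 CPM for L. The factor snai2, a regulator of crest delamination, had 32.1, 41.8 and 53.0 CPM for L and 8.81, 10.9 and 9.97 CPM for S. The migratory crest factor twist1 had 31.5, 37.7 and 39.4 CPM for S and 23.6, 28.9 and 27.9 CPM for L. The early specifier foxd3 had the fewest reads of the defining genes, with 7.65, 10.7 and 7.80 CPM for L and 2.47, 5.11 and 2.86 CPM for S. Of the other members, snai1.S had 118, 146 and 156 CPM and msx1.L 109, 125 and 89.8 CPM. Cranial placodes, the ectodermal source of ear, nose and lens, had all 26 features detected, at 589, 651 and 661 CPM. The placode regulator eya1 had 32.0, 41.0 and 43.2 CPM for S and 24.8, 30.6 and 24.6 CPM for L.

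Muscle was the second highest list. It had 66 of 72 features detected and summed to 14218, 12746 and 11592 CPM, with a median member at 38.9 CPM. Thick and thin filament genes and their regulators were high. The alpha-actin actc1, expressed in somites of the frog embryo as well as in heart, had 1181, 1071 and 1003 CPM for L and 918, 858 and 759 CPM for S. The fast myosin regulatory light chain mylpf had 593, 482 and 494 CPM for L and 554, 429.6 and 447 CPM for S. The muscle intermediate filament des.1 had 778, 708 and 767 CPM for L and 566, 493 and 489.7 CPM for S. Calcium handling and energy supply were likewise represented. The calcium pump atp2a1 of the sarcoplasmic reticulum had 1119.9, 918 and 910.0 CPM for S and 897, 985 and 566 CPM for L, with pool 3 lowest in the L copy. Creatine kinase ckm.L had 937, 730.4 and 767 CPM. The myogenic factor myod1 had 137, 212 and 189 CPM for S and 52.0, 73.6 and 71.3 CPM for L. In contrast to the filament genes, pool 1 was the lowest for both copies of myod1.

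The notochord, the axial rod that signals to neural tube and somites, had all 27 features detected, at 1601, 1518 and 1236 CPM. Its matrix collagen col2a1 had 409, 395 and 265 CPM for L and 411, 300.0 and 222 CPM for S, lowest in pool 3. Secreted signals of the axis were detected as well. The BMP antagonist chrd.S had 86.1, 134 and 132 CPM, and the hedgehog ligand shh had 31.3, 28.4 and 26.9 CPM for L and 5.71, 3.32 and 5.90 CPM for S. The homeobox factor not had 232, 260 and 143 reads for S and 118, 146 and 105 reads for L.

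Lateral and ventral mesoderm was read through heart, vessel, blood and kidney lists. Heart precursors had 25 of 32 features detected, at 549, 460.0 and 497 CPM. The cardiac factor nkx2-5 had 17.9, 16.0 and 20.6 CPM for S and 10.4, 7.86 and 11.5 CPM for L, and tbx5 had 1.69, 1.60 and 2.34 CPM for S. The atrial myosin myh6, a product of differentiated heart muscle, had 5.33, 3.39 and 4.85 CPM for S. The sarcomere protein mybpc3 had 157, 97.1 and 99.9 CPM for L and 32.8, 21.3 and 18.8 CPM for S. Its L copy held 23.3% of the list. The next member by reads, gata6.S, had 89.1, 102 and 103 CPM and is also on the endoderm list. Some other members of the list had few reads, with 13, 1 and 9 for myl7.S and 4, 1 and 1 for tnnt2.L. Both copies of nppa had no read. Vessel precursors (23 of 31 detected) summed to 328, 276 and 279.7 CPM. The haemangioblast factor etv2 had 22.1, 22.4 and 13.4 CPM for L, and the VEGF receptor kdr had 19.5, 12.3 and 18.7 CPM. The junction protein cdh5 of formed vessels had 3, 0 and 0 reads for L and 3, 0 and 0 reads for S.

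Blood genes were read by lineage. Their list had 28 of 46 features detected, and 3 had no read. The sum was 696, 500.4 and 641 CPM. Myeloperoxidase, a granule enzyme of myeloid cells, had 249, 150.1 and 199 CPM for mpo.S, which held 32.2% of the list, and the myeloid factor spib.L had 35.3, 30.8 and 46.3 CPM. The haematopoietic factor tal1.S had 32.4, 19.2 and 35.0 CPM. Red cell genes ranged widely, and hba2, hba3, hbe1 and klf1 were not matched to a feature. The globin hba1.L had 28, 1 and 5 reads, and hba1.S had 3, 0 and 0 reads. The embryonic globin feature hbz.L had 8.71, 11.3 and 10.6 CPM. The anion exchanger slc4a1.L, known from the red cell membrane, had 33.3, 48.9 and 35.2 CPM. It is also on the ionocyte list, so its level cannot be assigned to red cells. The erythroid factor gata1.L had 0.436, 0.511 and 0.433 CPM.

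The pronephros, the embryonic kidney, had 30 of 34 features detected, at 515, 575 and 558 CPM. The early kidney field factors pax8 and lhx1 had 19.2, 29.6 and 23.0 CPM for pax8.L and 15.9, 18.4 and 17.3 CPM for lhx1.S. The glomus factor wt1 had 1.11, 1.47 and 1.21 CPM for L and 0.92, 0.703 and 0.694 CPM for S.

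The endoderm list (38 of 42 detected) summed to 2959, 3412 and 4392 CPM, highest in pool 3. Most of this came from a2m.S, already given, and from darmin.L, a peptidase gene marking Xenopus endoderm, which had 443, 452 and 945 CPM. Without these genes the other 40 features summed to 788, 955 and 916 CPM, lowest in pool 1. The difference between pools 2 and 3 in the full list thus lay in those genes. The endodermal factor sox17a had 35.7, 49.6 and 52.5 CPM for S and 23.4, 26.1 and 31.4 CPM for L. The forkhead factor foxa2 had 19.3, 16.3 and 18.4 CPM for S and 13.8, 17.1 and 17.2 CPM for L, and gata5 had 32.2, 23.8 and 29.5 CPM for S and 19.2, 16.99 and 18.5 CPM for L. The foregut and liver factor hhex had 9.30, 4.47 and 5.46 CPM for L and 7.94, 4.34 and 5.81 CPM for S. The hindgut factor cdx2.L had 81.7, 137 and 104 CPM.

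**Figure D3:**
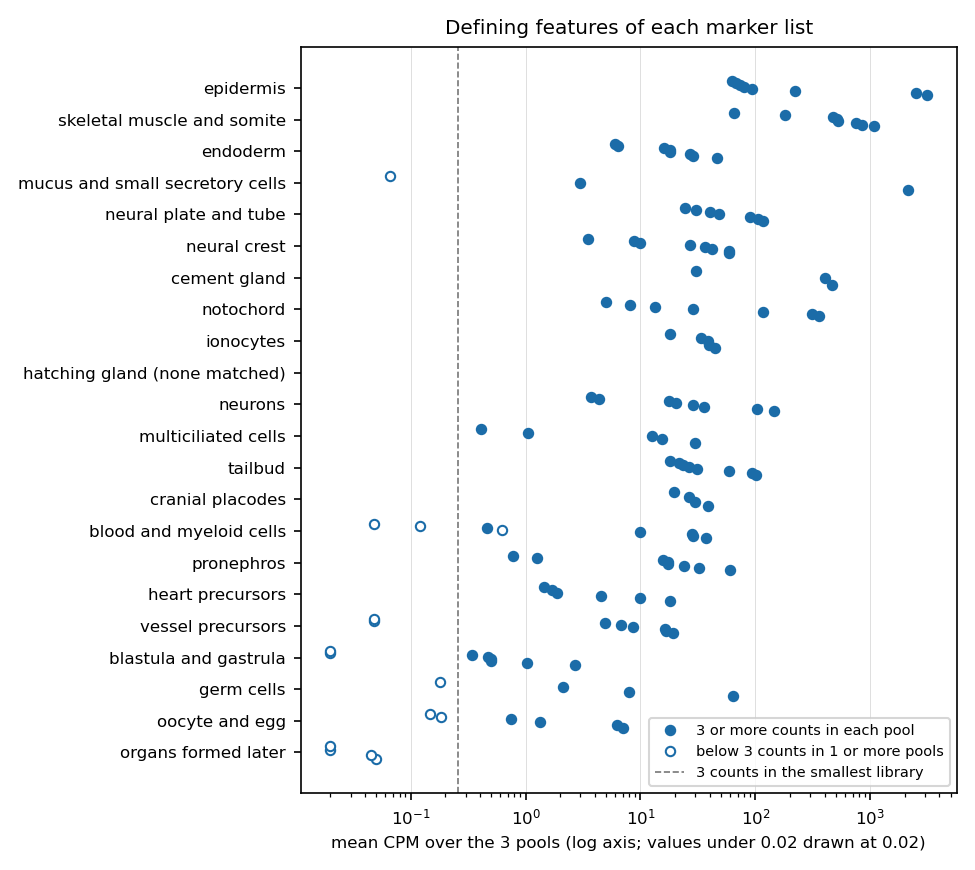
Each point is 1 defining feature of a marker list, at its mean CPM over the 3 pools (log axis), and open circles had fewer than 3 reads in at least 1 pool. Defining features of epidermis, muscle and neural lists lie above the floor of 0.260 CPM, while those of organs formed later lie below it.

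The posterior growth zone had 37 of 38 of its list detected, at 897, 1078 and 977 CPM. The posterior homeobox factor cdx4 had 91.4, 122 and 91.5 CPM for L and 54.6, 72.3 and 50.1 CPM for S. The presomitic mesoderm factor tbx6.L had 76.2, 105 and 96.6 CPM, and msgn1, which acts in the same cells, had 28.2, 33.3 and 17.5 CPM for S and 21.8, 26.2 and 21.8 CPM for L. Brachyury, the T-box factor of notochord and tailbud, is listed as t and had 16.5, 27.1 and 21.1 CPM for S and 12.8, 22.7 and 18.6 CPM for L. Pool 2 was highest for each of these 7 features. Some other leading members of the list went the other way. Pool 2 was the lowest for lfng.S (100, 82.4 and 102 CPM), lfng.L (68.7, 64.6 and 75.7 CPM) and bambi.L (54.5, 48.3 and 63.5 CPM).

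Hox genes give cells their position along the head-to-tail axis, with low-numbered paralogues acting in front and high-numbered ones behind. Of 76 Hox features 72 were detected, and together they had 909, 1036 and 882 CPM. The highest were hoxb9.S (47.1, 51.9 and 46.5 CPM), hoxa3.S (38.8, 48.3 and 47.3 CPM) and hoxb3.S (42.7, 46.3 and 39.8 CPM). Summed by paralogue group, the highest values were 201 ± 17.6 CPM at group 3 and 127 ± 15.7 CPM at group 9. A sum depends on how many features a group holds, and these groups have 8 each. The median member put groups 8 (21.9 CPM, 6 features) and 7 (21.2 CPM, 4 features) above group 3 (19.8 CPM), and group 9 was at 11.1 CPM, so that the high at group 9 was one of sums and not of members. Group 2 was below groups 1 and 3 in both measures, with a sum of 21.2 ± 2.35 CPM and a median of 6.18 CPM over 4 features. Groups 10, 11 and 13 hold 6 features each, and their sums were 71.6 ± 10.6, 27.0 ± 3.78 and 8.32 ± 1.73 CPM, with medians of 9.75, 3.74 and 1.04 CPM. Group 12 holds 2 features, with a sum of 9.73 ± 2.29 CPM and a median of 4.87 CPM. In group 13, hoxc13.L had 3.73, 5.11 and 3.29 CPM and hoxd13.L 1.16, 1.09 and 0.867 CPM, and both copies of hoxa13 were below 3 reads in pools 2 and 3. Among the clusters, HoxB held 308 ± 23.9 CPM over 18 features, HoxA 272 ± 22.2 CPM over 22, HoxC 251 ± 23.1 CPM over 20 and HoxD 111 ± 14.0 CPM over 16.

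**Figure D4:**
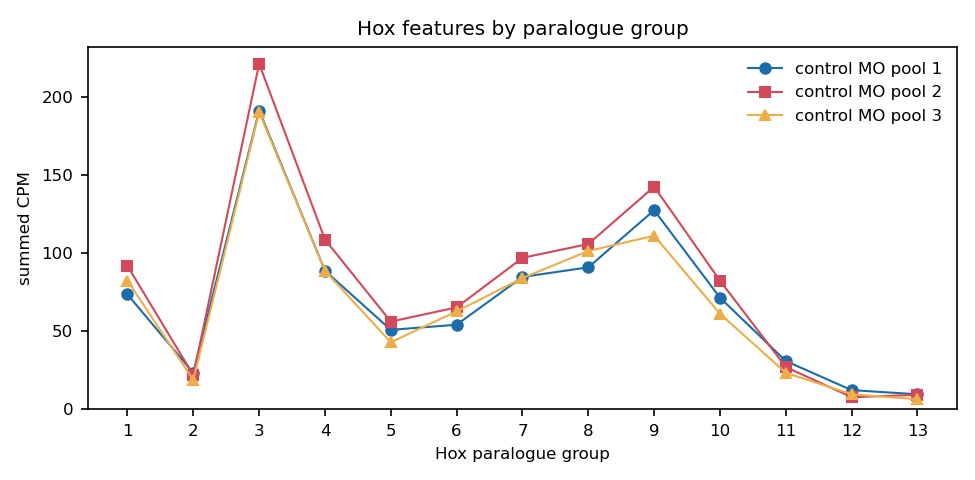
Summed CPM of Hox features in each paralogue group, with 1 line per pool of control MO embryos. All pools have their highest sum at group 3, their second highest at group 9 (111 to 143 CPM) and low sums at groups 12 and 13, and groups hold between 2 and 8 features.

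Signalling families were measured as ligands and receptors. Wnt ligands, which pattern the posterior axis and neural tube, had 33 of 38 features detected and summed to 289, 337 and 322 CPM. Genes of the non-canonical branch led them. The ligand wnt5b.L had 42.7, 50.7 and 49.0 CPM and wnt11b.L had 47.1, 43.6 and 48.5 CPM. The canonical ligands wnt8a.L and wnt3a.L had 16.4, 20.7 and 14.7 CPM for wnt8a.L and 7.07, 13.2 and 9.02 CPM for wnt3a.L. Genes of the FGF family gave 93.7, 101 and 91.5 CPM over 36 features, of which 25 were detected and 4 had no read. This sum includes fgf11, fgf12, fgf13 and fgf14, which are not secreted ligands. Of these, fgf14.S had 15.1, 19.0 and 11.1 CPM. The tailbud and brain-boundary ligand fgf8.L had 14.7, 18.7 and 18.0 CPM, and the related fgf3.S had 4.55, 6.96 and 7.46 CPM. For BMP and Nodal ligands 30 of 61 features were detected, and 22 had no read. The ventral ligand bmp4 had 33.6, 32.2 and 33.6 CPM for L and 19.8, 23.2 and 19.4 CPM for S, and bmp7.1.L had 66.4, 51.0 and 53.1 CPM. Of the Nodal genes, which act in mesoderm induction and in left-right asymmetry, nodal1.L had 6.83, 6.00 and 5.03 CPM and nodal.L and nodal.S had no read. The feature lefty.L, a Nodal antagonist, had 6.25, 3.00 and 6.59 CPM. In the Notch pathway, which times somite formation and selects neurons, the receptor notch1.L had 133, 148 and 120.2 CPM and the ligand dll1.L had 53.8, 59.5 and 55.3 CPM. The ligand dlc.L had 94.2, 141 and 117 CPM.

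Germ cells, eggs, earlier stages and later organs served as lists that a tailbud embryo should express little or locally. Germ cell genes (17 of 24 detected) summed to 243, 288 and 225 CPM. The germ plasm helicase ddx4 had 58.4, 77.1 and 56.4 CPM for L, whereas ddx4.S had 4, 4 and 1 reads. The germ cell translation factor dazl.L had 7.99, 12.0 and 3.73 CPM, and pgat.L had 22.4, 26.7 and 7.72 CPM. Pool 3 was lowest for these features. Other members differed in this. The transcriptional repressor prdm1, which also acts outside the germ line, had 42.9, 47.2 and 50.0 CPM for S and 40.2, 41.5 and 42.5 CPM for L. The tudor domain gene tdrd7.L had 15.0, 20.5 and 21.2 CPM, and all 3 of these features were highest in pool 3. Listed features with a mean of at least 100 reads thus included some that were lowest and some that were highest in pool 3. Oocyte and egg genes (22 of 32 detected, 6 with no read) summed to 184, 224 and 249 CPM. The zygote arrest gene zar1.L had 7, 2 and 1 reads, the meiotic kinase mos.L had 5.42, 5.94 and 9.88 CPM, and the egg envelope gene zp2.L had 6.20, 6.39 and 6.33 CPM. Leading members such as trim36.S (47.6, 58.6 and 68.1 CPM) and wnt11b.L also act in the embryo.

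Genes of the blastula and gastrula had 23 of 49 features detected, and 14 had no read. The organizer factor gsc.L had 3.53, 2.24 and 2.34 CPM, the mesendoderm factor mix1.L had 11, 3 and 9 reads, and eomes.S had 9, 6 and 8 reads. Both copies of sia1, an early dorsal factor, had no read, which allows up to 0.145, 0.192 and 0.260 CPM. The list's sum of 228, 314 and 317 CPM was led by chrd.S, which is also on the notochord list, and by pou5f3.1.L, an Oct4-related factor, at 21.0, 45.1 and 38.1 CPM. Genes of organs formed later had 12 of 49 features detected, and 12 had no read. Insulin (ins.S) and albumin (alb.S) had no read, and their L copies had at most 1 read per pool. One gene stood apart from this list. The sodium-potassium-chloride cotransporter slc12a1.L, known from the kidney tubule, had 151, 122 and 143 CPM and held 92.3% of the summed reads. Without slc12a1.L the list summed to 12.44, 10.8 and 11.6 CPM.

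Genes of general cell function took large shares of reads, although some of them, such as tubb2b, are also on a tissue list. Cytosolic ribosomal protein genes had 120 of 125 features detected and summed to 36880.1, 29806 and 28807 CPM, led by rpl3.L with 1525, 1369 and 1180.3 CPM. RNA-binding proteins summed to 31276, 33600.3 and 36266 CPM over 39 features, all detected. Among them the splicing regulator hnrnpa2b1.S had 809, 977 and 881 CPM. A translation list of elongation and initiation factors, poly(A)-binding proteins and tpt1 summed to 20709.9, 20789.6 and 18624 CPM. Chaperones summed to 17426, 15294 and 18194 CPM, and general cytoskeleton genes to 9836, 8322 and 9589 CPM. The non-muscle actin actg1 had 1624, 1319.6 and 1736 CPM for S and 731, 589.7 and 672 CPM for L. Energy metabolism was covered by respiratory and glycolytic genes. Nuclear genes of oxidative phosphorylation summed to 4501, 3492 and 4006 CPM over 127 features, led by the ATP synthase subunit atp5b.S with 498, 372 and 419.5 CPM. Glycolytic genes summed to 2972, 2592 and 2119 CPM, with gapdh.S at 413, 334 and 327 CPM and pkm.L at 115, 87.1 and 70.9 CPM. Histone genes summed to 1506, 1715 and 1395 CPM, led by the replacement variants h3f3b.L (361, 557 and 358 CPM) and h2afz.L (366, 314 and 350.1 CPM). Replication-dependent histone messages lack a poly(A) tail and are poorly captured by this library type.

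The study concerns base excision repair, in which a glycosylase removes a damaged base and an endonuclease cuts the backbone at the abasic site. Of 15 features of this class 14 were detected, at 497, 489.6 and 549 CPM in all. The thymine DNA glycosylase tdg.S led with 142, 165 and 197 CPM. The abasic site endonuclease apex1 had 125, 104 and 115 CPM for L and 82.4, 74.0 and 80.5 CPM for S. The Neil glycosylases remove oxidized bases. Among them neil1.L had 21.0, 26.6 and 28.9 CPM and neil3.L had 9.83, 10.6 and 6.16 CPM, while neil3.S had no read. The gene targeted in the study, neil2, was at the floor in these embryos, with 3, 4 and 3 reads for neil2.L, or 0.145, 0.255 and 0.26 CPM.

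Between pools most features differed little, but by more than counting alone gives. Over the 15671 features with a mean of at least 100 reads, the median difference was 0.20 on the log2 scale between pools 1 and 2, 0.26 between pools 1 and 3 and 0.28 between pools 2 and 3. A difference of more than 2-fold was found for 234 features (1.49%) between pools 1 and 2, for 560 (3.57%) between pools 1 and 3 and for 636 (4.06%) between pools 2 and 3. A chi-square statistic of the counts, divided by its degrees of freedom, was 13.8, 19.3 and 18.3 in these pairs, where sampling noise alone gives values near 1. The coefficient of variation (CV) of CPM had a median of 28.8% for features with 10 to 100 reads, 15.4% for 100 to 1000 reads and 11.5% from 1000 reads up. Counting alone gives medians of 16.7%, 5.68% and 2.37% in these classes. The common biological coefficient of variation, the spread left after counting noise, was 0.222 in edgeR over 23545 features. With all pools thinned to the smallest total, the mean of the median differences was 0.25, against 0.24 with all reads. The biological coefficient was 0.178 without pool 3, 0.238 without pool 2 and 0.246 without pool 1.

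The 5 named features with the lowest CV among those with a mean of at least 1000 reads were chosen for that value, and their CVs of 0.076% to 0.358% were below the median that counting alone gives. The catenin arvcf.S had 83.0, 82.9 and 83.0 CPM, the kinase subunit csnk2a2.L had 170.2, 171 and 170.2 CPM, and the polarity kinase mark2.L had 157, 157 and 156 CPM. The partner copy arvcf.L had 131, 149 and 156 CPM and csnk2a2.S had 172, 217 and 211 CPM. The other features chosen in this way were znf609.L and the small GTPase arf1.S.

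At the other end, the 12 named features with the highest CV among those with a mean of at least 100 reads differed between the highest and the lowest pool by 4.76-fold to 75.9-fold. Some passed that limit only through the pool where they were high, such as ina.S with 52, 16 and 431 reads. The limit thus partly shaped which features and pools stand here. The neuronal intermediate filament ina.S had 2.52, 1.02 and 37.4 CPM, high in pool 3. The secreted olfm4.L, an olfactomedin, had 6.68, 20.7 and 163 CPM, again high in pool 3. The same pool was the highest for agap2.S (3.098, 2.17 and 25.8 CPM), for the steroid reductase akr1d1.S (4.502, 2.24 and 23.7 CPM) and for the surface protein psca.S (5.52, 4.09 and 25.5 CPM). Other features were low in pool 3. The neuropeptide receptor npffr2.L had 8.18, 32.6 and 0.52 CPM, parp4.L had 12.44, 26.3 and 0.347 CPM, and the pump-related feature atp12a-like.L.L had 17.5, 45.2 and 1.39 CPM. The glutathione-degrading chac1.L had 20.9, 7.98 and 1.39 CPM and the sorting nexin snx13.L had 10.99, 4.22 and 0.867 CPM, so that both were highest in pool 1. Pool 1 also stood above the others for the muscle ankyrin-repeat gene ankrd2.L (13.4, 1.72 and 1.21 CPM) and the receptor eda2r.L (37.1, 8.05 and 7.80 CPM). Partner copies were mixed. The copy psca.L (15.8, 6.58 and 24.4 CPM) had the same highest pool as psca.S. So did ankrd2.S (2.08, 0.703 and 0.173 CPM) and akr1d1.L (0.436, 0.639 and 2.25 CPM) with their partners. These last copies rest on 43, 11 and 2 reads and on 9, 10 and 26 reads. In contrast, agap2.L (4.31, 6.00 and 5.90 CPM) and snx13.S (8.42, 7.47 and 5.202 CPM) differed by less than 2-fold between pools. The copies ina.L and npffr2.S had at most 3 reads in a pool.

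**Figure D5:**
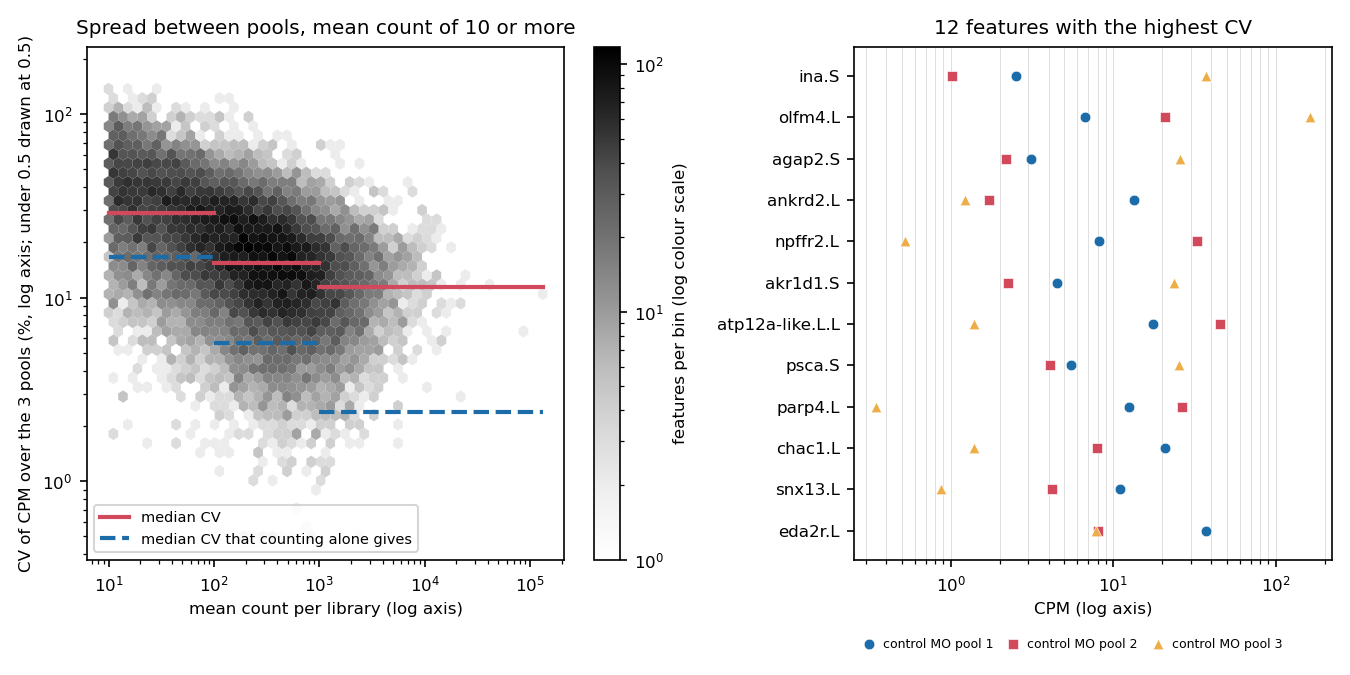
Left, CV of CPM over the 3 pools against mean count for features with a mean of at least 10 reads (both axes log, shading by number of features), with the median CV per class as a solid line and the median that counting alone gives as a dashed line. Right, CPM of the 12 named features with the highest CV in each pool, where pool 3 is the highest for 5 and the lowest for 7.

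A feature was counted as apart when 1 pool was at least 2-fold above or below both others. The limit of 100 reads is a mean of raw counts, so larger libraries weigh more in it. Some features passed it only through the pool where they were high. The counts above and below per pool are therefore partly set by this limit. Pool 3 was apart for 275 features (1.75%), 219 of them below and 56 above. Pool 2 was apart for 74 features (0.472%) and pool 1 for 74 (0.472%). A feature counts for a pair of pools where one was apart above and another apart below, as 32 did. For 127 of the 391 different features, a partner copy with enough reads was measured. Where pool 3 was below, 8 of 67 partner copies were apart in the same way, and a pair with both copies apart counts once for each copy. The counts were 2 of 19 where pool 3 was above, 2 of 21 where pool 1 was above and 0 of 3 where pool 1 was below. For pool 2 they were 0 of 4 above and 0 of 17 below. Over all 15671 features with a mean of at least 100 reads, pool 3 was apart below for 219 and above for 56. Pool 1 was apart above for 63 and below for 11, and pool 2 above for 22 and below for 52. Whether partner copies were apart more often than all features was not tested.

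Although single genes varied, some groups of genes leaned towards one pool. Over all 15671 features with at least 100 reads, 31.3% were highest in pool 1, 29.3% in pool 2 and 39.4% in pool 3. Of 120 ribosomal protein features, 109 were highest in pool 1. For oxidative phosphorylation 71 of 108 were highest in pool 1. Of 54 muscle features 30 were highest in pool 1. Multiciliated, ionocyte, tailbud and Hox lists leaned to pool 2, whereas the sum of the cement gland list was lowest there. The sum for mucus and small secretory cells was also lowest in pool 2, but itln1.L held 92.6% of it. Without itln1.L that list summed to 153, 168 and 185 CPM, lowest in pool 1. For multiciliated cells 28 of 36 features were highest in pool 2. For ionocytes 16 of 19, for tailbud 23 of 30 and for Hox genes 36 of 48 were highest in pool 2. Pool 3 was the highest for 23 of 39 RNA-binding protein features and for 19 of 34 chaperone features. These counts describe 3 pools without a test, and genes of a list are not independent of each other. Scaling by TMM factors, a correction for composition, gave 109 of 120 ribosomal, 70 of 108 oxidative phosphorylation and 27 of 54 muscle features highest in pool 1. Over all features the shares under this scaling were 28.1% in pool 1, 35.1% in pool 2 and 36.8% in pool 3. It gave 31 of 36 multiciliated, 16 of 19 ionocyte, 23 of 30 tailbud and 40 of 48 Hox features highest in pool 2. For RNA-binding proteins it gave 22 of 39 and for chaperones 19 of 34 features highest in pool 3. In contrast, the pool with the highest sum changed from pool 3 to pool 2 under this scaling for neural crest, cranial placodes and the blastula and gastrula list. The lists named here are some of 36, and a lean was not particular to them. Under the same scaling 9 of 12 Notch and 7 of 10 germ cell features were highest in pool 2. For general cytoskeleton 24 of 39 and for glycolysis 12 of 22 features were highest in pool 1.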

How the data were processed

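RNA-seq was deposited by the authors as raw read counts per gene feature, without normalization, for whole stage 23 embryos. Per the study's methods and the submitters' processing notes, TruSeq poly(A) libraries were read from one end, aligned with STAR 2.5.4b to X. laevis v9.2 and counted on the JGI annotation with featureCounts 1.5.1 at default settings. With these settings reads that map to several places or overlap several features are left out and strand is not used, so near-identical copies and overlapping or antisense genes are uncertain. The deposited counts of 3 of 6 libraries were converted here to CPM by library total. Reads carried no molecular identifiers, so PCR copies were counted.

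Members and gene lists were chosen with earlier results of these data known. Symbols were matched by name and 11 through RefSeq v10.1 synonyms. On the tissue lists 54 symbols were not matched to a feature, among them acta1 and myh1 of muscle and mcidas of multiciliated cells. Counts of detected features leave these symbols out. Named features were drawn from the 25 with most reads, the 3 of these without a symbol that had most reads, defining genes and up to 4 further members of each list, Hox genes and ligands, and partner copies. Also named were the 12 features with the highest CV (mean of at least 100 reads) and the 5 with the lowest (at least 1000). The features of krt8, krt15.L, krt5.6.S, hbz.L, slc4a1.L, myl7.S, tnnt2.L and those of slc26a4 and nppa lie outside this rule and were chosen after their values were seen. Some genes that the rule covers are not reported here. Values are mean ± s.d. (n = 3), with no test. Dispersion was estimated with edgeR 4.0.16 in R 4.3.3 with TMM factors (1.01, 0.978 and 1.01), on features with a mean of at least 10 reads, and checked on simulated data. DESeq2 1.42.0 gave size factors for an alternative. Other alternatives were thinned counts, other detection limits, summed homeologs, list medians and leaving out each library.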

Additional observations from a re-analysis of the deposited data

How the results depend on the processing

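No paired analysis was possible because 1 group was described and nothing was tested. Of 39 recomputed values of the main results, 35 stayed close to the value given. For counts of features or lists this means within 1.5 times it and for other values within 1 s.d. Some of these outcomes were fixed in advance, since leaving out 1 of 3 pools cannot move a mean over the pools by 1 s.d. For the measures of spread, the s.d. was that of the values without each pool. The count of 35 is therefore no measure of robustness. Summing L and S copies per symbol put 21.2% of reads in the first 100 symbols, against 17.6% for features. By median CPM in place of the sum, 2 of the 5 highest tissue lists stayed among the first 5. Leaving out each pool in turn gave a biological coefficient of variation of 0.178 to 0.246, where the value without pool 3 was the lowest, and a median difference between pools of 0.20 to 0.28 on the log2 scale. Detected features numbered 20780 at 1 CPM and 28349 at 1 read. Leaving out the leading member of each list, an alternative added after seeing the data, kept 4 of those 5 lists. Levels per kb of coding length were not run for the abundant features or for the lists, since no lengths of this annotation were used. The spread rests on 3 pools, and depth limits statements on features near 3 reads.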
